A study of Mus musculus with 6 samples.

Results

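The smooth muscle contractile genes described here are 10 genes (Acta2, Actg2, Tagln, Myh11, Cnn1, Des, Smtn, Mylk, Myl9 and Lmod1) that encode the actin and myosin apparatus of vascular and visceral smooth muscle and of pericytes. They were chosen by symbol, and 10 of 10 were found among the 14681 genes of the deposited table. The data are RNA sequencing of dorsal pancreas from C57BL/6 mouse embryos at embryonic day 18.5, in 3 control and 3 knockout samples. The knockout is named Dpy30∆P, a deletion of Dpy30, a subunit of the Trithorax group complexes that methylate histone H3 at lysine 4. The sources used here name neither the Cre line that drives the deletion nor the alleles carried by the controls, although the name of the table refers to Pdx1. Each library comes from whole dorsal pancreas, so smooth muscle is a minor tissue in it, and fewer cells of a type and less RNA per cell cannot be told apart.

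In smooth muscle, calcium-bound calmodulin activates myosin light chain kinase (Mylk), which phosphorylates the regulatory light chain (Myl9), and the smooth muscle myosin heavy chain (Myh11) then pulls on filaments of alpha or gamma smooth muscle actin (Acta2, Actg2). Calponin (Cnn1), transgelin (Tagln), smoothelin (Smtn) and leiomodin (Lmod1) bind these actin filaments, and desmin (Des) forms the intermediate filaments around them. Most of these genes are activated by serum response factor (SRF) with its cofactors myocardin, Mkl1 and Mkl2, through a short DNA element, the CArG box. In the pancreas the apparatus is found in vessel walls and pericytes; Des is also made by stellate cells, and Actg2 is best known from the gut wall.

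The windows around the transcription start, from 250 bases before to 50 after, were searched for CArG boxes on both strands, because SRF acts there. RefSeq windows (GRCm38.p6) matched 7 of the 10 genes. Of these 7, 1 (Myl9) held an exact CArG box, beside 1.63% of the 32851 windows searched. With 1 base of the box allowed to differ, 3 of the 7 held a match (Myl9, Acta2 and Lmod1), against 21.1% of the windows searched. The windows of Myl9 (chr2:156775214-156775513, plus strand), which holds the exact box, Acta2 (chr19:34255324-34255623, minus strand), which holds only near matches, and Smtn (chr11:3539243-3539542, minus strand), the gene with the smallest p below, are shown 5′ to 3′, with boxes and near matches in capitals.
Myl9: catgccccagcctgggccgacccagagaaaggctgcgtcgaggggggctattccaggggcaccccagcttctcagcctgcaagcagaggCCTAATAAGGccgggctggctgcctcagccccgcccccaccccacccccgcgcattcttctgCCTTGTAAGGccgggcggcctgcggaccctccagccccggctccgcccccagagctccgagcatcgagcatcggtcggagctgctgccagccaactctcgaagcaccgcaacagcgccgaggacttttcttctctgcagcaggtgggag
Acta2: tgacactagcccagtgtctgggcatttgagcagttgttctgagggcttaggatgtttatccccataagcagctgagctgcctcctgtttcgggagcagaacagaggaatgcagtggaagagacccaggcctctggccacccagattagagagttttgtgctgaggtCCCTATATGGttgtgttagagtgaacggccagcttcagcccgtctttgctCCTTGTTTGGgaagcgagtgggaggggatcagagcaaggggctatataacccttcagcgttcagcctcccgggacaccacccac
Smtn: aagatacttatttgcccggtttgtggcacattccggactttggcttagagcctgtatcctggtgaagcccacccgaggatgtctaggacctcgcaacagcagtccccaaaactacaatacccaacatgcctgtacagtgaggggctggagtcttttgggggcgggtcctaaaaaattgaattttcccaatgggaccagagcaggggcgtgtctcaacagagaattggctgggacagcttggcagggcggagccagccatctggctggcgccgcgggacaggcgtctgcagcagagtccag
The RefSeq starts lay at most 44 bases from those of the principal GENCODE transcripts, except for Acta2, where the RefSeq start lies 217 bases downstream. The exact box of Myl9 lay from -161 to -152, counting the start as 0, and the near matches of Acta2 lay from -84 to -75 and from -34 to -25. The Smtn window held no match, which says only that these letters are absent from these 300 bases. Des, Cnn1 and Mylk held none either, while Actg2, Tagln and Myh11 had no window to search.

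**Figure D1:**
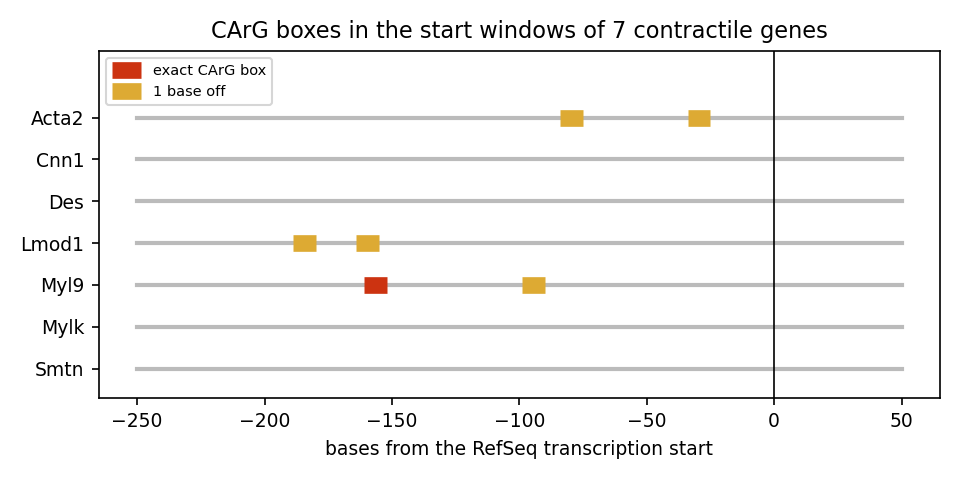
Positions of CArG boxes (x axis, bases from the RefSeq transcription start) in the start windows of the 7 contractile genes that have one, with exact boxes in red and matches that differ by 1 base in yellow. Only Myl9 holds an exact box, from -161 to -152; Acta2 and Lmod1 hold near matches, and Cnn1, Des, Mylk and Smtn hold none.

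All 10 genes were detected, at widely differing levels. Their mean normalized counts, which the authors deposited as 1 mean over all libraries, ran from 5.55 for Lmod1 to 480 for Des, and 7 of the 10 lay above the median of all genes, 65.1. Values for single libraries and the depth of each library are unknown. The 10 genes held 0.0487% of the summed mean counts. Per kilobase of the principal GENCODE transcript, a scale that allows genes to be compared, Myl9 was highest at 185.4 counts, followed by Des at 159, Smtn at 122 and Acta2 at 101. Tagln at 44.6 and Mylk at 35.5 followed, and Actg2 at 19.3, Myh11 at 11.7, Cnn1 at 9.03 and Lmod1 at 1.40 were lowest. The spread of these levels over libraries is unknown, so whether neighbours in this order differ could not be assessed. Transcript choice matters for Mylk, Smtn and Cnn1, whose coding transcripts run from 1620 to 7824, from 1747 to 3386 and from 1225 to 2381 bases. Telokin, a separate smooth muscle protein, is made from the 3′ part of Mylk. Which part of the gene the short Mylk transcript covers was not examined.

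**Figure D2:**
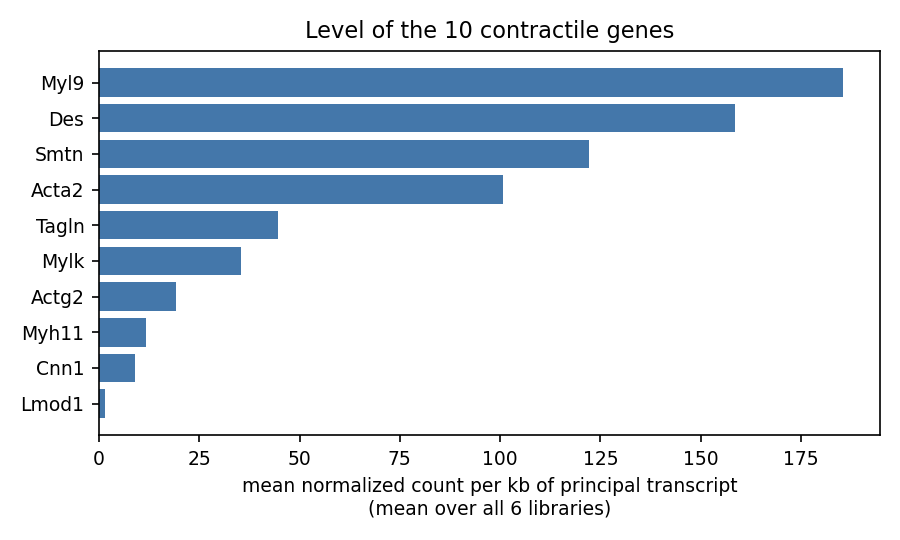
Mean normalized count per kilobase of the principal transcript (x axis, linear, from 0) for the 10 contractile genes; bars are means over all 6 libraries, for which no error can be given. Myl9, Des, Smtn and Acta2 stand above 100, and Lmod1 lies at 1.40.

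Reads of the 2 smooth muscle actins could in principle be confused with each other or with cytoplasmic actins, so their sequences were compared. The coding sequences of Actg2 and Acta2 were 84.2% identical, and those of Actb and Acta2 82.8%. The first 60 coding bases of both genes (GENCODE M21), where the proteins of this family differ most, show the differences. Capitals in Actg2 mark bases unlike the aligned base of Acta2. Actg2 is the shorter (1131 against 1134 coding bases), and the gap of the alignment, not drawn, lies in this stretch. Bases at the same position are therefore not always aligned, and the last Actg2 bases align to Acta2 bases not shown.
Acta2: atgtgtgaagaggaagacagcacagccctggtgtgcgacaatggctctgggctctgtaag
Actg2: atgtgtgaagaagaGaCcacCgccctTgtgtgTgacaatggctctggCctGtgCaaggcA
Of all 31-base words in the Acta2 transcript, 1.496% also occurred in a transcript of another gene, mostly the predicted gene Gm6375. The share was 1.46% for Actg2 and 1.07% for Myh11, and at most 0.455% for each of the other 7 genes. Most words of each transcript thus occurred in no other gene. Of the 31-base words in the Acta2 coding sequence alone, 2.36% also occurred in that of Actg1 and 1.54% in that of Actb. These cytoplasmic actins had mean counts of 3737 and 8444, against 205 for Acta2. Exons of Tagln overlap the protein-coding gene Pcsk7 on the opposite strand, and those of Smtn, Des and Mylk overlap noncoding genes there; the library kit keeps strand, but the sources used here do not state whether the counting used it.

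For the comparison of knockout with control, the numerator of the deposited fold changes is not stated. Positive values are called higher here and are read as higher in the knockout by the usual convention; with the opposite convention every direction reverses. Dpy30 does not settle this: its mean normalized count was 29.4 and its unshrunken log2 fold change 0.50 ± 1.66 (SE). The deposited log2 fold changes were shrunken strongly toward 0 (92.7% of all genes, and 7 of the 10 contractile genes, lay within 0.1 of 0), so unshrunken values were reconstructed from each deposited value and its posterior SD. This gave a value that returned the deposited p for 8 of the 10 genes. For Cnn1 and Lmod1 only the deposited values are given.

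No contractile gene passed the test. The authors' deposited table gives an adjusted p for 8 of them, and 0 of these lay under 0.05, beside 0.743% of 12108 genes. By unadjusted p, 1 of the 9 genes with a p, Smtn, lay under 0.05, which is 11.1% beside 5.39% of all 14386 genes. Smtn was higher (2.70% of all genes were), and 0 members were lower by that measure. The deposited sign was positive for 9 of 10 genes, against 54.7% of all genes, and Mylk was the exception. Relative to the median of fibroblast genes, described further on, Myl9 was also below 0. The median unshrunken log2 fold change of the 8 genes was 0.90, beside 0.08 over all 13059 genes with such a value. Restricted to values with an SE of at most 1, the medians were 0.81 over 5 contractile genes and -0.04 over 5710 genes. Genes of 1 tissue are not independent, so these medians are a description.

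Smtn (Entrez gene 29856; chromosome 11, 3517523 to 3540612, GRCm38), which encodes smoothelin, a protein of fully contractile smooth muscle, had the smallest p of the group. Its deposited log2 fold change was 0.45 ± 0.61 (posterior SD), and the authors' deposited table lists a p of 0.0183, or 0.566 after adjustment. Its unshrunken value was 1.05 ± 0.44 (SE), or 2.06-fold higher with a 95% interval from 1.13 to 3.77. It was the only member whose interval left out 0, and 390 of the 14386 genes had a smaller p. Its SE was below that of most genes of like abundance: 16.5% of genes within 1.5-fold of its mean count had a smaller one. Even so, a 3.01-fold change would have been needed to reach the p of the weakest called gene.

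Des and Acta2 followed. Des (Entrez gene 13346; chromosome 1, 75360329 to 75368579) had an unshrunken log2 fold change of 0.81 ± 0.48 (SE), a 1.75-fold difference with a 95% interval from 0.907 to 3.38; the authors' deposited table lists its adjusted p as 0.923. Acta2 (Entrez gene 11475; chromosome 19, 34241090 to 34255590) had an unshrunken value of 1.00 ± 0.61 (SE), a 2.00-fold difference with an interval from 0.871 to 4.59, and the authors' deposited table lists its adjusted p as 0.931. Both intervals include no change, and neither gene can be called different.

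The myosin side of the apparatus comprises 3 members. Mylk (chromosome 16, 34745210 to 35002420), the kinase that starts contraction, was the single member with a negative value, -0.10 ± 0.61 (SE), and its 95% interval of the fold ran from 0.408 to 2.12. Its substrate Myl9 (chromosome 2, 156775420 to 156781658), the gene with the exact CArG box shown above, had a value of 0.33 ± 0.67 and an interval of the fold from 0.503 to 3.13. Myh11 (chromosome 16, 14194535 to 14291372), the heavy chain, had a value of 1.10 ± 1.04, with an interval from 0.525 to 8.79. Differences between these members were not tested.

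The remaining members had wider errors or no unshrunken value. Tagln (chromosome 9, 45929619 to 45936058) had an unshrunken value of 1.14 ± 1.45 (SE), with a 95% interval of the fold from 0.309 to 15.8. For Actg2 (chromosome 6, 83512905 to 83536265), the actin of visceral smooth muscle, the value was 0.54 ± 2.16 and the interval ran from 0.0768 to 27.4. Cnn1 (chromosome 9, 22099216 to 22109630) had a mean count of 21.5 and no p in the authors' deposited table, as had 2.01% of all genes. Genes without a p had mean counts from 8.20 to 2831, and the sources used here do not state why the p is missing. The deposited log2 fold change of Cnn1 was 0.01 ± 0.22 (posterior SD). Lmod1 (chromosome 1, 135324807 to 135368065), with a mean count of 5.55, is listed in the authors' deposited table with an unadjusted p of 0.142 and none after adjustment, which the table omits for genes with means up to 8.15. An unadjusted p under 0.05 would have needed a change of 7.15-fold in Tagln and 18.9-fold in Actg2. Of genes within 1.5-fold of its mean count, 76.0% had a smaller SE than Tagln, and for Actg2 57.6% did. The intervals of the 8 members with a value all contain the range from 0.17 to 1.08 on the log2 scale.

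**Figure D3:**
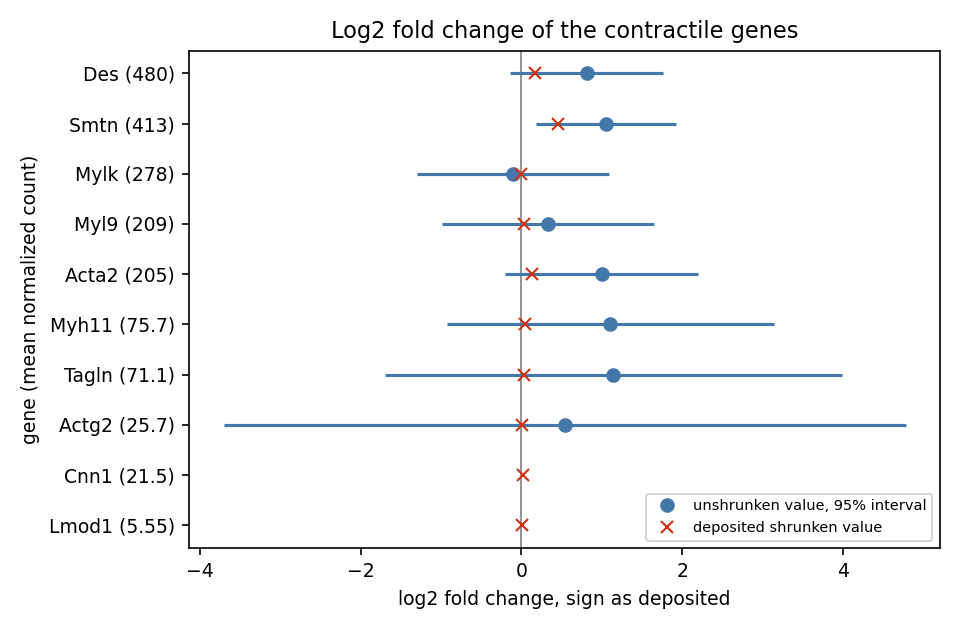
Log2 fold change (x axis, sign as deposited) of the 10 contractile genes, ordered by mean normalized count (in brackets). Circles are unshrunken values with 95% intervals and crosses the authors' deposited shrunken values; 7 of 8 circles lie above 0, the interval of Smtn alone leaves out 0, and the widest interval is that of Actg2, the least abundant of the 8.

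**Figure D4:**
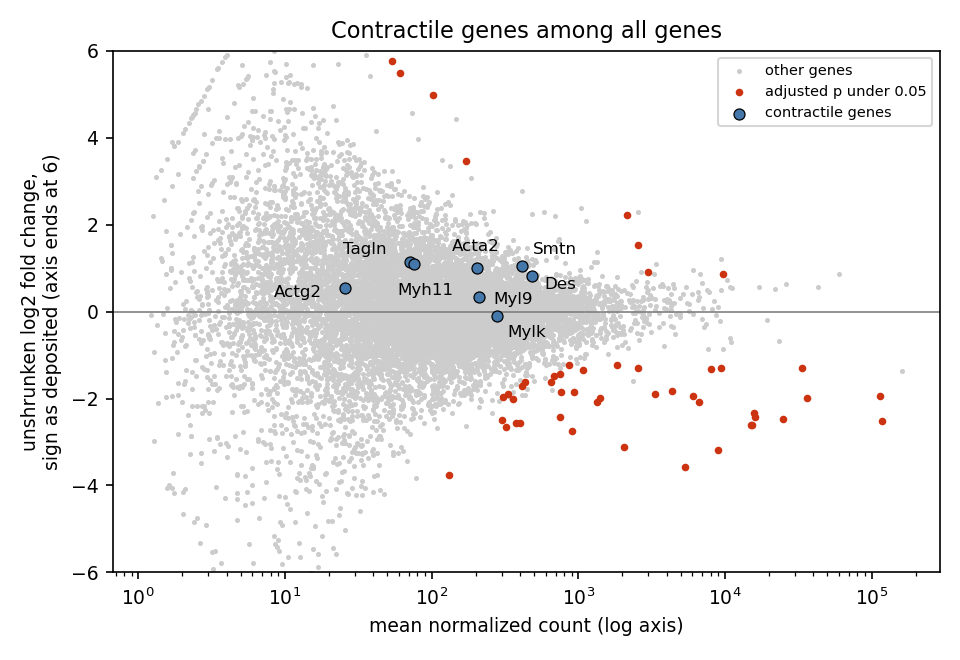
Unshrunken log2 fold change (y axis, drawn from -6 to 6) against mean normalized count (log x axis) for all genes with such a value, with genes of adjusted p under 0.05 in red and the contractile genes in blue. The 8 contractile genes lie inside the cloud of genes that were not called.

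Genes around the contractile apparatus gave no call either. In 5 lists of related genes, which together hold 82 genes of the table, 0 were called in the authors' DESeq2 test. By unadjusted p under 0.05 there were 4 higher and 3 lower genes. Over all genes, 0.743% were called, and 2.70% were higher and 2.70% lower by unadjusted p. Of 22 other smooth muscle cytoskeletal genes, 21 were listed and 0 had an unadjusted p under 0.05 in either direction, with a median unshrunken log2 fold change of 0.17. Their most abundant member, Flna (filamin A, an actin crosslinker), had a value of 0.11 ± 0.24 (SE). Synm, an intermediate filament partner of desmin, and Pdlim3, an actin-associated LIM protein, had the smallest p of this list, with values of 2.31 ± 1.46 and 2.68 ± 1.79 (SE). Tpm2, a tropomyosin of smooth muscle chosen after its value was seen, was at 0.80 ± 0.60.

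Signalling genes set how far the light chain is phosphorylated. Of the 16 genes for myosin phosphatase, RhoA signalling, calmodulin and calcium handling, 5 had a positive and 11 a negative sign (54.7% of all genes were positive), and the median unshrunken log2 fold change was -0.26, which lies above the median of -0.85 of the epithelial genes described further on. By unadjusted p under 0.05, 2 genes were lower, beside 2.70% of all genes, and 0 were called. Atp2a2, the calcium pump of the endoplasmic reticulum, was at -0.77 ± 0.33 (SE), and the authors' deposited DESeq2 table lists its adjusted p as 0.566. It is expressed in most cell types, acinar cells included, and the part of other cell types in the values of this list was not tested. Ppp1r12a, the targeting subunit of myosin phosphatase, was at -0.36 ± 0.39.

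Among 20 regulators of the smooth muscle programme, 17 were listed, 10 with a positive and 7 with a negative sign, and 0 had an unadjusted p under 0.05. Srf had an unshrunken value of -0.01 ± 0.58 (SE), and its cofactors Mkl1 and Mkl2 were at 0.17 ± 0.63 and 0.87 ± 0.57. Gata6, a zinc finger factor of smooth muscle and pancreas, was at 0.80 ± 0.49, and Foxf1, a factor of gut mesenchyme, had a mean count of 6.99 and no adjusted p. Notch2, the most abundant of these genes, was at 0.21 ± 0.38. Well determined values in this list ran from -0.76 for Barx1, a factor of stomach mesenchyme, to 0.87 for Mkl2.

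Of 12 further SRF target genes, 10 were listed, and Actg1 (cytoplasmic gamma actin) was the single one with an unadjusted p under 0.05. It had an unshrunken value of 0.63 ± 0.24 (SE), and the authors' deposited DESeq2 table lists its adjusted p as 0.382; its window holds an exact CArG box, from -90 to -81. Actb (beta actin) was at 0.25 ± 0.23 and Junb, an immediate early gene, at 1.69 ± 1.23. Exact boxes were found in 9 of 73 genes of these lists that have a window, beside 1.81% of all genes with a window searched. The lists include genes chosen as SRF targets, so a higher share is partly built into the choice. Among them Vcl was at 0.26 ± 0.50, Cnn2 at 0.07 ± 0.46 and Myl6 at 0.14 ± 0.32. Fhl1 was at 0.17 ± 1.27 and Fhl2 at 2.08 ± 2.61, while Acta1 was at -0.90 ± 1.13 and Srf at -0.01 ± 0.58. The remaining gene with an exact box has no value here. A relation between the box and the size of change was not tested.

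Each member has relatives that serve other cell types, and these were set beside it. Of 26 paralogs 21 were listed, 0 were called, and by unadjusted p under 0.05 there were 4 higher genes and 1 lower. Of all genes, 2.70% were higher and 2.70% lower by that measure. Smtnl2, a smoothelin-like gene, had a value of 1.56 ± 0.73 (SE; the authors' deposited DESeq2 table lists an unadjusted p of 0.0365), beside 1.05 for Smtn. Vim (vimentin), the intermediate filament of mesenchyme, was at 0.65 ± 0.23 (the same DESeq2 table lists an adjusted p of 0.281), beside 0.81 for Des. Tagln2 was at 1.06 ± 0.62 and Cnn3 at 0.43 ± 0.44. Myl12b, a light chain of nonmuscle myosin, was at 0.27 ± 0.48, close to Myl9, while Myh9, a nonmuscle heavy chain, was at -0.14 ± 0.35. Tmod3, a relative of Lmod1, was at -0.31 ± 0.60 and Mylk4, a relative of Mylk, at 2.10 ± 1.91.

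Markers of the cells that carry or surround smooth muscle were compared in the same way. Of 13 pericyte genes 11 were listed, with 10 positive signs, 0 calls and a median unshrunken log2 fold change of 0.62, or 0.22 over the 7 with an SE of at most 1; the smallest p belonged to Anpep at 0.77 ± 0.40 (SE) and Pdgfrb at 1.26 ± 0.65, while Rgs5 was at -0.23 ± 0.81. Of 16 fibroblast and mesenchyme genes, 14 were positive and 0 were called. By unadjusted p under 0.05, 5 of them were higher, beside 2.70% of all genes, and the median of this list was 0.36. Taken relative to that median, the contractile genes had a median of 0.54 and 6 of 8 stayed above it, with Mylk and Myl9 below. Endothelial genes (14 of 14 listed) had a median of 0.13 and mesothelial genes (6 of 7) one of 0.10, each with 0 genes at an unadjusted p under 0.05. Of the markers of the labelled tissue, chymotrypsinogen (Ctrb1) had the highest mean count of the table. Pancreatic epithelial genes were negative in 9 of 9, with a median of -0.85; 1 was called lower, the keratin gene Krt18 at -1.23 ± 0.28 (SE). Of the acinar genes, 9 of 11 were called lower, with a median of -2.39, while over all genes 0.479% were called lower. Relative to the epithelial median the contractile genes lay at 1.76, with 8 of 8 above. The part of these other cell types in the values of the contractile genes was not tested.

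Striated muscle, which also makes desmin and related actins, was sparse. Of 22 genes, 14 were listed, 7 with a positive and 7 with a negative sign, and their mean counts started at 1.99; Acta1, the actin of skeletal muscle, had a mean count of 48.9 and a value of -0.90 ± 1.13 (SE). Ttn (titin), at a mean count of 193, was the single called gene, with a deposited log2 fold change of 6.04 ± 1.00 (posterior SD), for which the authors' deposited DESeq2 table lists an adjusted p of 2.68e-07, and no unshrunken value that returned its p. The other 13 listed striated muscle genes had an unadjusted p above 0.05. Of 10 genes of the intestinal and gastric epithelium, 6 were listed and 3 had a p, of which 0 were under 0.05. Lgals2 was at 1.81 ± 1.17, Vil1 at 0.53 ± 1.35 and Tff2 at -0.53 ± 0.66 (SE). The others, the stomach genes Tff1, Gkn1 and Gkn2, had mean counts of 154, 80.9 and 46.2 and, like Cnn1, no p.

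**Figure D5:**
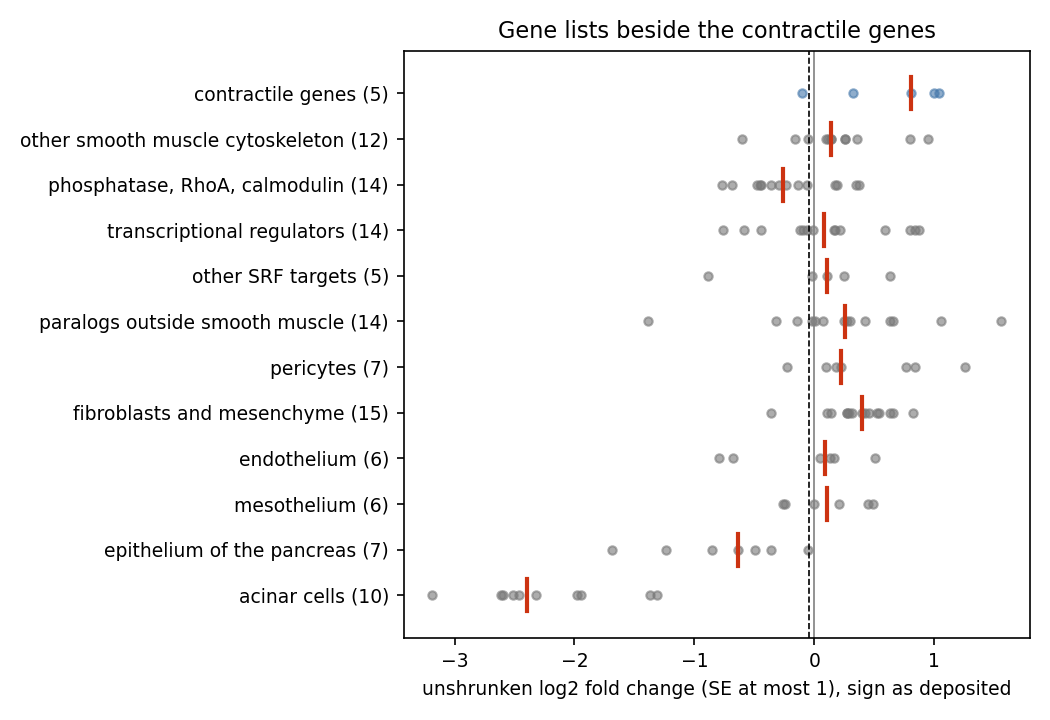
Unshrunken log2 fold change (x axis, sign as deposited) of genes with an SE of at most 1, by gene list, with the number of such genes in brackets; red bars are list medians and the dashed line the median of all genes, -0.04. The contractile genes have a median of 0.81, with Mylk below 0, and fibroblast genes one of 0.40, while acinar genes lie lowest at -2.39.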

How the data were processed

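RNA of 3 control and 3 knockout dorsal pancreas samples, grouped by their titles, was sequenced after ribosomal depletion with a stranded low-input kit, per the labels' protocols; 3 embryos of each kind were dissected, and the p-values reflect only the spread among these samples. Trimmomatic, Salmon and DESeq2 and the build GRCm38 (mm10) are named in the submitters' processing notes; no source used here names versions, filters or the model. The authors deposited 1 table without values for single libraries: a mean of normalized counts over libraries (a signal), log2 fold changes with an error in log2 units, p-values and adjusted p-values. Genes with an adjusted p under 0.05 are termed called.

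The planned test on counts needs values for single libraries, so no gene was tested again and the authors' DESeq2 results are described as theirs. Shrinkage was undone with Python 3.11.15, NumPy 2.4.6 and SciPy 1.17.1, assuming a Cauchy prior and a quadratic likelihood. The prior scale of 0.31 was chosen because it returned the deposited p, to within 0.1 in z, for the most genes. It did so for 90.8% of genes with a p, and values are given only for those. Only the scale of the prior was varied, and its assumed Cauchy form was not tested. Intervals are 95% normal intervals.

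The 10 members and the 13 gene lists were chosen with earlier results of these data known. Named genes are all members, the 2 genes with the smallest p and the most abundant one of each list, the most abundant paralog of each member, and Dpy30; others are examples of a role. Some genes the rule takes from the lists are not reported here. Coordinates and transcripts are from GENCODE M21 (GRCm38), start windows from RefSeq (GRCm38.p6).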

Additional observations from a re-analysis of the deposited data

How the results depend on the processing

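The count of contractile genes called stayed at 0 when p-values were adjusted over every gene with a p, when the threshold was an adjusted p of 0.1, and when only genes with a mean count of at least 100 were adjusted; at an unadjusted p under 0.05 it was 1 in the authors' DESeq2 test. The 82 related genes also gave 0 under these settings. The median unshrunken log2 fold change of 0.90 was 0.029 with the deposited shrunken values, 0.54 relative to fibroblast genes and 1.76 relative to epithelial genes. Leaving out each member in turn gave 0.81 or 1.00. The median of the rest can only be a middle value next to 0.90, so this range does not measure stability. The unshrunken sizes depend on the prior scale. A larger one, which no longer returns the deposited p of most members, lowered the median to 0.12. Acta2 was then at 0.47, Myh11 at 0.15, Myl9 at 0.087, Tagln at 0.082 and Smtn at 1.15. The SE fell from 1.45 to 0.39 for Tagln and from 2.16 to 0.39 for Actg2, while that of Smtn rose from 0.44 to 0.51. Intervals and needed folds thus depend on the scale too. Signs cannot change with the scale, because each unshrunken value keeps the sign of the deposited one by construction. A smaller one gave values for 3 members: Acta2 at 4.96, Des at 0.94 and Smtn at 0.96. Using z from the deposited p, the restriction to an SE of at most 1, and the median at the larger scale were chosen after seeing the data. By their construction they could not change the sign of a member's value. Leaving out single replicates was not run, since it needs values for single libraries. No paired analysis was possible because the table holds 1 result over all libraries.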
